A study of Mus musculus with 2 samples.

Results

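The 10 heat shock chaperone genes Hspa1a, Hspa1b, Hspa8, Hsp90aa1, Hsp90ab1, Dnajb1, Hsph1, Hspe1, Hspd1 and Hspb1 were followed across liver cell types and in both libraries of a droplet single-cell RNA sequencing study of mouse liver. They were taken by symbol from the 31053 genes of each library, and all 10 were found in both. Heat shock chaperones bind unfolded proteins and help them fold, refold or be degraded. Some of them are made all the time, while others are switched on by the heat shock transcription factor HSF1 when proteins unfold under heat, ischaemia, oxidants or mechanical injury. In liver they are known as a response to warm ischaemia and to the enzymatic and mechanical steps that free cells from the tissue, so their transcripts are also read as a sign of handling stress in single-cell data.

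The pIVCL library came from liver of C57BL/6 mice whose inferior vena cava had been partly tied off for 6 weeks (ligation at 8 to 10 weeks of age), which narrows the vein and congests the liver. The Control library carries the genotype label Control and a title that calls it healthy, while the growth text of both samples describes the ligation, so the comparison rests on the genotype label. A sham operation and the number of animals are not given in the sources used here. Both suspensions mixed hepatocytes, freed by collagenase perfusion, with separately isolated non-parenchymal cells, in 1 library per group. With 1 library per group there was no replicate check and no test, and every difference compares these libraries and not the conditions.

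The pIVCL library held 7042 barcodes and 38154000 UMIs (unique molecules), and the Control library 3574 barcodes and 24637681 UMIs. After filtering, 5443 pIVCL and 2718 Control cells remained, with a median of 2005 and 5263.5 UMIs. They formed 29 clusters in 16 marker-named classes, called by the class name with "-like", plus cluster 16, which stayed unnamed and was led by Rspo3, Ccl21a, Mmrn1 and Vwf. Levels are the UMIs of a gene over all UMIs of the class, scaled to CPM, with exact 95% Poisson intervals, and ratios are pIVCL over Control, with conditional exact 95% intervals. All intervals cover counting error only. A 3′ UMI count does not grow with transcript length, so levels of different genes are set side by side here without a length correction. The 5 classes compared between the libraries had at least 100 cells in each. They were LSEC-like cells (liver sinusoidal endothelial cells, 583 in pIVCL and 1101 in Control), hepatocyte-like cells (1869 and 473), Kupffer-like cells (768 and 321), T cell-like cells (327 and 191) and B cell-like cells (1053 and 138). Monocyte/macrophage-like cells (207 and 37) and NK/ILC1-like cells (90 and 25) had fewer than 100 cells in Control and were left out of the counts over all genes, so a ratio given for them rests on few Control cells. The libraries shared 9 cell barcodes among kept cells. Doublets were in effect not removed, since the caller marked only 3 pIVCL and 8 Control barcodes.

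HSF1 binds heat shock elements, in which copies of the unit GAA and its reverse complement alternate with 2 bases between them. RefSeq promoter windows of GRCm38.p6, which run from 250 bases before to 50 bases after a gene's start, were at hand for 7 of the 10 members, in 10 windows (Hspd1, Hsph1 and Dnajb1 have 2 each). They were searched on both strands for 2 such units (GAANNTTC or TTCNNGAA) and for 3 (GAANNTTCNNGAA or TTCNNGAANNTTC, which contain the shorter ones). Of all 32851 promoter windows, 15.1% held 2 units and 0.603% held 3. Among the members, 6 of 7 held 2 units in at least one window and 3 of 7 held 3. These count a member with a match in any of its windows, while the shares are over single windows. The matches are also not all separate, since Hspe1 and Hspd1 share a stretch and Hspa1a and Hspa1b have nearly the same promoter. A match is a description of the letters and not of a bound site. The stretches below are shown because they hold the matches found upstream of RefSeq starts of members, with the matches in capitals.

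Hspa1a: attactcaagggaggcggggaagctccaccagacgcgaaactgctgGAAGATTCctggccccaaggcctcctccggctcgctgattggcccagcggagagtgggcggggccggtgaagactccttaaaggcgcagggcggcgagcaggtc
Hspb1: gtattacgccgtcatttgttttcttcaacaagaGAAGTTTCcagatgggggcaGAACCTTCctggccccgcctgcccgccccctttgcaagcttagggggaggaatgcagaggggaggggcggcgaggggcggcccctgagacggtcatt
Hspe1: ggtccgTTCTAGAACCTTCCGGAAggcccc
Hsph1: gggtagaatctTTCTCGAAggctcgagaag

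The Hspa1a stretch is the 150 bases before its start (chr17:34972157-34972306, minus strand), and the same stretch of Hspb1 is chr5:135887769-135887918 on the plus strand. Hspa1a held 1 match of 2 units and Hspb1 held 2. Hspa1b has nearly the same promoter as Hspa1a, with 1 difference in these 150 bases and 4 in the 300-base window. The Hspe1 stretch (chr1:55088053-55088082, plus strand) holds 2 overlapping matches of 3 units. Hspd1 is transcribed the other way, and the stretch is upstream of one of its 2 RefSeq starts and lies inside an annotated exon of Hspd1. The window of its other start held no match. The Hsph1 stretch (chr5:149636351-149636380, minus strand) held 1 match of 2 units, and a match of 3 units followed after the start. This stretch is upstream of the RefSeq starts of Hsph1 but overlaps an annotated exon of Hsph1. The 2 windows of Dnajb1 held no match.

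The 2 inducible Hsp70 genes showed the widest difference between the libraries. Hspa1a (ENSMUSG00000091971, chromosome 17, 34969190 to 34972156, minus strand, GRCm38) and Hspa1b (ENSMUSG00000090877, 34956436 to 34959238, same strand) lie 9951 bases apart and encode nearly identical Hsp70 proteins, which hold unfolded proteins in an ATP-driven cycle. Their transcripts share 47.5% of their 98-base words, but none of those in the last 500 bases of Hspa1a, where 3′ tags fall, so they are given both singly and as a sum. In the kept cells of the whole library the sum stood at 51.3 CPM in pIVCL (1416 UMIs, interval 48.7 to 54.0) and at 19.3 CPM in Control (381 UMIs, 17.4 to 21.3).

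The sum was 156 CPM in pIVCL B cell-like cells (330 UMIs, 140 to 174), while Control had 0 UMIs of 489691. With a floor of 3 UMIs for the class, which is 6.13 CPM, pIVCL was at least 25.5-fold higher. Hspa1a alone had 208 UMIs in pIVCL and 0 in Control, and Hspa1b 122 and 0. In T cell-like cells the sum was 119 CPM in pIVCL (93 UMIs, 96.4 to 146) and 1.03 CPM in Control, from 1 UMI of 971911, a ratio of 116 (20.3 to 4634). In Control, then, the lymphocytes with the largest cell numbers had almost no inducible Hsp70 transcripts, although the same cells were sequenced more deeply there than in pIVCL (B cell-like medians of 1831 UMIs in pIVCL and 3253.5 UMIs in Control).

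In Kupffer-like cells, the resident macrophages of the sinusoid, the sum was 243 CPM in pIVCL (216 to 273) and 30.8 CPM in Control (22.3 to 41.5), a ratio of 7.90 (5.72 to 11.2). In LSEC-like cells it was 81.4 CPM in pIVCL (69.2 to 95.2) and 24.97 CPM in Control (21.2 to 29.2), a ratio of 3.26 (2.596 to 4.10). Hspa1a and Hspa1b gave ratios of 3.02 and 3.73 singly in LSEC-like cells, and 7.33 and 9.08 in Kupffer-like cells. Hepatocyte-like cells had 4.97 CPM in pIVCL (3.99 to 6.12) and 5.51 CPM in Control (3.94 to 7.51), a ratio of 0.902 (0.614 to 1.34), so no difference was detectable there at this depth.

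Across all classes of pIVCL with at least 20 cells, the sum was highest in Kupffer-like cells, followed by cDC1-like cells (198 CPM), monocyte/macrophage-like cells (190) and B cell-like cells (156). Each of these overlapped the interval of the class before it. Most other non-parenchymal classes lay between 67.8 CPM in NK/ILC1-like cells and 142 CPM in mature DC-like cells, and cholangiocyte-like cells had 29.96 CPM. Hepatocyte-like cells lay below the interval of the class before them. Neutrophil-like cells had 0 UMIs of 307856, which the interval puts at no more than 12.0 CPM, and erythroid-like cells had 0 UMIs of 72866.

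Control ordered the classes differently. There the highest were hepatic stellate-like cells (65.2 CPM, 51.5 to 81.5), unnamed cluster 16 (59.1), vascular endothelial-like cells (45.4) and Kupffer-like cells (30.8), each overlapping the one before. Stellate-like cells, the vitamin A-storing pericytes of the sinusoid, had 114 CPM in pIVCL, where 94 cells held 58 UMIs (86.6 to 147), and the ratio was 1.75 (1.22 to 2.49). Monocyte/macrophage-like cells had 190 CPM in pIVCL and 11.6 CPM in Control (203 and 4 UMIs), a ratio of 16.4 (6.31 to 60.8). In pDC-like cells pIVCL had 102 CPM (17 UMIs), and Control had 0 UMIs of 201971, a difference of at least 6.84-fold with the floor.

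**Figure D1:**
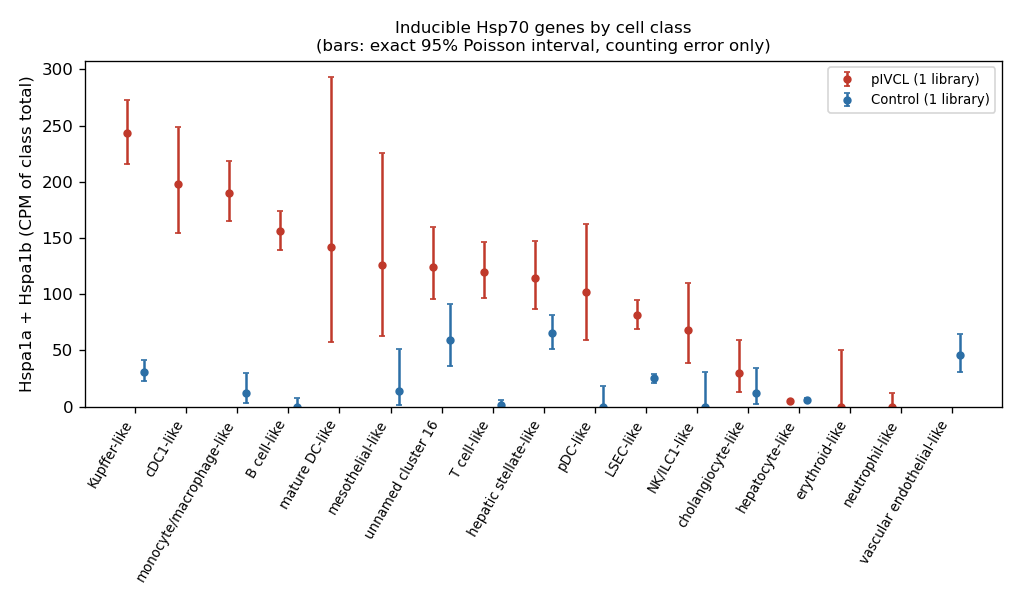
Summed level of Hspa1a and Hspa1b (CPM of the class total) in each class with at least 20 cells, in the pIVCL library (red, left) and the Control library (blue, right). Points are 1 library each and bars are exact 95% Poisson intervals; most pIVCL classes lie between 60 and 250 CPM, hepatocyte-like cells stand near 5 CPM in both libraries, and Control B cell-like cells stand at 0.

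The difference also stood within clusters that both libraries shared. In B cell-like cluster 0 (999 pIVCL and 134 Control cells) the sum was 153 CPM in pIVCL and 0 in Control. In the CD8-marked T cell-like cluster 8 (250 pIVCL and 43 Control cells) it was 133 CPM in pIVCL (77 UMIs) and 0 in Control. In the Cxcr6-marked cluster 12 (77 pIVCL and 148 Control cells) it was 79.7 CPM in pIVCL and 1.29 CPM in Control (16 and 1 UMIs). The libraries thus filled these T cell-like clusters unevenly, which limits the T cell-like class ratios. In Kupffer-like cluster 10, with 141 pIVCL and 135 Control cells and a median of 4432 UMIs, it was 516 CPM in pIVCL and 40.4 CPM in Control, a ratio of 12.8 (9.24 to 18.1). The shallow Kupffer-like cluster 1 (median 891 UMIs) had 23.0 CPM in pIVCL (15 UMIs) and 0 in Control, so the deeper cluster carried most of the Kupffer-like signal.

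In LSEC-like cells the libraries did not share their main clusters, and this limits every LSEC-like value. Cluster 6, led by Esm1 and Lyve1, held 414 of the 583 pIVCL cells, and had 88.8 CPM in pIVCL (75.3 to 104). Cluster 2, led by Dnase1l3, held 758 of the 1101 Control cells, and had 25.7 CPM in Control (21.8 to 30.2). In cluster 5, the shallow cluster present in both, pIVCL had 0 UMIs in 161 cells (at most 20.7 CPM) and Control 7 UMIs in 332 cells (16.4 CPM). The ratio in cluster 5 was 0, with an interval up to 1.66, which does not reach the LSEC-like class ratio of 3.26 (2.596 to 4.10). In the one LSEC-like cluster that both libraries filled, no difference was thus detectable, and one of the size of the class ratio was not seen.

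Hepatocyte-like cells had the same limit. The deep cluster 4 (median 21089 UMIs) held 683 pIVCL and 4 Control cells, whereas the deep clusters 15 and 20 held 1 pIVCL cell each and 126 and 91 Control cells. The median mitochondrial share of the class was 3.62% in pIVCL and 16.9% in Control. Clusters 3, 7, 13 and 14 were filled by both libraries, with 626, 296, 83 and 88 pIVCL cells and 86, 60, 52 and 43 Control cells, and their ratios are given beside the class ratios of members with more UMIs. Hspa1a and Hspa1b together had no more than 3 UMIs in either library in any of these 4 clusters. The part of cluster make-up and mitochondrial share in the class ratios was not tested.

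The share of cells with a Hspa1a or Hspa1b UMI was compared after thinning each cell to 1000 UMIs, with exact binomial intervals. Among B cell-like cells it was 5.98% in pIVCL (56 of 937, 4.55% to 7.69%) and 0 of 132 in Control (up to 2.76%). Among T cell-like cells it was 6.14% in pIVCL (18 of 293) and 0 of 184 in Control (up to 1.98%). Kupffer-like cells had 12.3% in pIVCL (45 of 365, 9.14% to 16.1%) and 2.10% in Control (5 of 238, 0.686% to 4.83%). LSEC-like cells had 6.15% in pIVCL (30 of 488, 4.19% to 8.66%) and 2.36% in Control (22 of 933, 1.48% to 3.55%). In hepatocyte-like cells, taken as the background class, the shares were 0.839% in pIVCL and 1.05% in Control, at unthinned medians of 2585 and 7025 UMIs.

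Before thinning, the pIVCL and Control shares were 8.17% and 0% in B cell-like cells, 10.7% and 0.524% in T cell-like cells, 9.64% and 8.10% in Kupffer-like cells, 9.95% and 10.6% in LSEC-like cells, and 4.44% and 6.98% in hepatocyte-like cells. The Control cells were deeper in each of these classes, so the raw shares are not matched for depth. Thinning left out 403 pIVCL and 83 Control Kupffer-like cells with fewer than 1000 UMIs, 95 and 168 LSEC-like cells, 116 and 6 B cell-like cells, 34 and 7 T cell-like cells, and 438 and 91 hepatocyte-like cells.

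**Figure D2:**
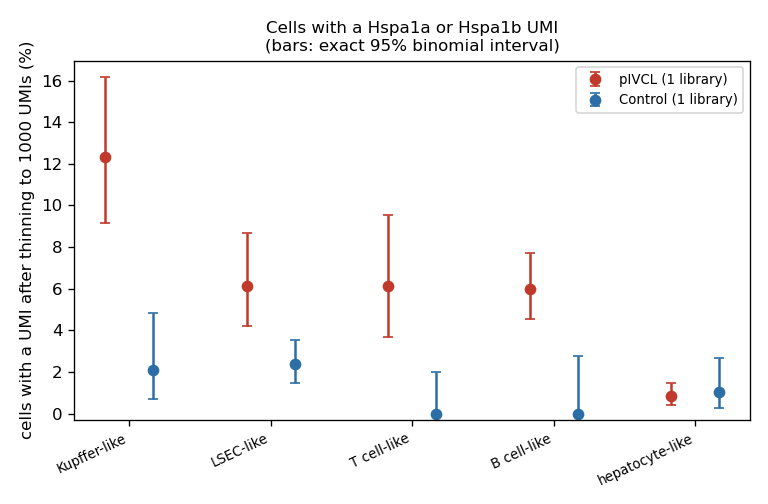
Percent of cells with at least 1 UMI of Hspa1a or Hspa1b after thinning every cell to 1000 UMIs, in the pIVCL library (red, left) and the Control library (blue, right), with exact 95% binomial intervals. In Kupffer-like cells the pIVCL share was 12.3% and the Control share 2.10%, and hepatocyte-like cells stood near 1% in both.

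The inducible Hsp70 transcripts sat in few cells. In pIVCL B cell-like cells, 26 of 1053 cells had 5 or more UMIs and held 218 of the 330 UMIs (66.1%), with up to 16 UMIs in 1 cell. In pIVCL Kupffer-like cells 25 of 768 cells held 187 of 286 UMIs (65.4%), and in Control 1 of 321 cells held 6 of 43. In pIVCL LSEC-like cells 9 of 583 cells held 82 of 157 UMIs (52.2%), whereas in Control 2 of 1101 cells held 11 of 156 (7.05%). The LSEC-like libraries thus had nearly equal UMI sums spread over 58 cells in pIVCL and 117 cells in Control. In pIVCL monocyte/macrophage-like cells 11 of 207 cells held 152 of 203 UMIs. Stellate-like cells were alike in this respect, with 32 of 58 UMIs in 4 pIVCL cells and 43 of 77 UMIs in 4 Control cells.

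Hepatocyte-like cells differed from the other classes in the make-up of the sum. No hepatocyte-like cell had 5 or more UMIs in either library, and 83 pIVCL cells held 89 UMIs. Hspa1a was 7.87% of the sum in pIVCL (7 of 89 UMIs) and 10.0% in Control (4 of 40), so nearly all of it was Hspa1b. In LSEC-like, Kupffer-like and pIVCL B cell-like cells Hspa1a was 61.1% to 67.4% of the sum. T cell-like cells of pIVCL were between these, with 44.1% (41 of 93 UMIs). Hspa1a overlaps the gene model Gm20481 on the opposite strand, and strand-aware counting is not stated in the sources used here.

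What else moved with the inducible genes was read in the thinned cells of pIVCL, by comparing those with a Hspa1a or Hspa1b UMI with those without. In B cell-like cells Dnajb1, the Hsp40 partner that delivers substrates to Hsp70, stood at 393 CPM in the 56 cells with and at 62.4 CPM in the 881 cells without, from 22 and 55 UMIs, a ratio of 6.29 (3.65 to 10.5). Hsph1, the Hsp110 exchange factor that recharges Hsp70 with ATP, had 143 and 37.5 CPM (8 and 33 UMIs, ratio 3.81, 1.52 to 8.42). Hspa8 had a ratio of 1.77 (1.40 to 2.20), Hsp90aa1 1.64 (1.18 to 2.23), Hsp90ab1 1.56 (1.25 to 1.92) and Hspe1 1.48 (1.01 to 2.09). Hspd1 was not higher, at 0.626 (0.267 to 1.26). The 14 immediate-early genes, fast response genes such as Fos and Egr1, had 6911 and 6941 CPM, a ratio of 0.996 (0.896 to 1.10), and the hepatocyte free RNA list had 0.914 (0.863 to 0.968). In the unthinned data, where 86 B cell-like cells had such a UMI and 967 had none, median depth was 1886.5 and 1828 UMIs and the median mitochondrial share 6.74% and 6.26%.

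**Figure D3:**
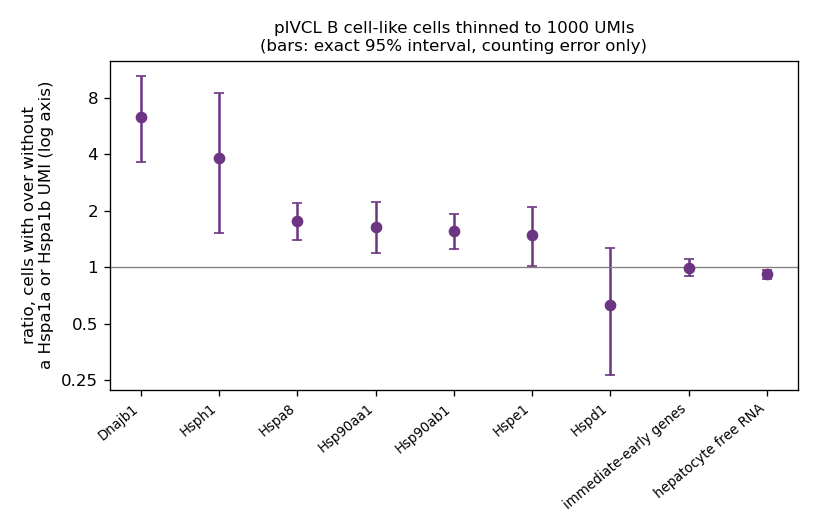
Ratio of the level in pIVCL B cell-like cells with a Hspa1a or Hspa1b UMI over those without one, after thinning to 1000 UMIs, on a log axis with exact 95% intervals for counting error. Dnajb1 lies highest at 6.29 and the immediate-early list lies at 0.996.

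In other classes fewer UMIs stood behind the same comparison. Dnajb1 and Hsph1 each had 3 and 6 UMIs in pIVCL Kupffer-like cells with and without, a ratio of 3.56 (0.575 to 16.6). In pIVCL LSEC-like cells Dnajb1 had a ratio of 2.04 (0.521 to 5.78) and Hsph1 of 2.86 (0.534 to 10.0), so these intervals include 1. The LSEC-like interval of Hsph1 includes its B cell-like ratio of 3.81. That of Dnajb1 ends below its B cell-like ratio of 6.29, though it overlaps the B cell-like interval (3.65 to 10.5). In T cell-like cells of pIVCL, with 18 cells with and 275 without, Hsp90aa1 had a ratio of 1.98 (1.12 to 3.30) and the other 8 members together 1.23 (0.970 to 1.53).

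The immediate-early and hepatocyte lists differed between classes in this comparison. In pIVCL Kupffer-like cells the immediate-early list stood at 8067 CPM in cells with and 3112 CPM in cells without (ratio 2.59, 2.29 to 2.93), Hsp90aa1 had a ratio of 1.95 (1.29 to 2.87), and the other 8 members together 1.15 (0.984 to 1.34). The hepatocyte free RNA list was lower in these cells, at 16289 CPM in cells with and 30859 CPM in cells without (0.528, 0.489 to 0.569), and its ratio was 0.744 (0.663 to 0.831) in LSEC-like and 0.693 (0.610 to 0.785) in T cell-like cells. Its part in these differences was not tested. Put the other way, Kupffer-like cells of pIVCL above the median of the immediate-early list had 444 CPM of inducible Hsp70, against 23.4 CPM in the others. The 74 pIVCL Kupffer-like cells with a UMI before thinning had a median of 3019 UMIs, against 920.5 in the 694 without. In pIVCL LSEC-like cells the immediate-early ratio was 0.974 (0.874 to 1.08) and that of the other 8 members 0.926 (0.742 to 1.14), so the cells with inducible Hsp70 were not detectably richer in either sum.

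The other members of the Hsp70 machine differed less between the libraries. Hspa8 (chromosome 9, 40800984 to 40810087, plus strand), the constitutive Hsp70 that works in folding, clathrin uncoating and chaperone-mediated autophagy, had 990 CPM in pIVCL and 688 CPM in Control B cell-like cells (ratio 1.44, 1.28 to 1.62). In LSEC-like cells it had 1183 CPM in pIVCL and 914 CPM in Control (1.30, 1.23 to 1.36), but in the shared cluster 5 the direction turned, at 875 CPM in pIVCL and 998 CPM in Control (0.877, 0.725 to 1.06). In Kupffer-like and T cell-like cells its ratios were 1.07 and 1.02, and in hepatocyte-like cells 0.904 (0.874 to 0.935). Within the shared hepatocyte-like clusters 3, 7, 13 and 14 it went both ways, with ratios of 0.702, 0.808, 2.38 and 1.30. Hspa8 was highest in pIVCL cDC1-like cells, at 2685 CPM (2519 to 2859), above the interval of every other class there, and lowest in neutrophil-like cells, at 357 CPM.

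Dnajb1 (chromosome 8, 83608193 to 83612653, plus strand) was low in every class, with 13.7 to 100 CPM in pIVCL and 21.2 to 59.4 CPM in Control. In B cell-like cells it had 77.5 CPM in pIVCL and 28.6 CPM in Control (164 and 14 UMIs, ratio 2.71, 1.57 to 5.07). T cell-like cells had 100 CPM in pIVCL and 42.2 CPM in Control (2.37, 1.61 to 3.56), but thinning to 1000 UMIs turned this round, at 71.7 CPM in pIVCL and 81.5 CPM in Control. Within the T cell-like clusters 8 and 12 the ratios were 1.68 (0.917 to 3.32) and 1.80 (0.856 to 3.59). LSEC-like cells had 62.7 CPM in pIVCL and 35.5 CPM in Control (1.77, 1.40 to 2.21), and in cluster 5 the ratio was 1.596 (0.468 to 5.02). Kupffer-like cells, where Hspa1a and Hspa1b differed most among the compared non-lymphoid classes, had 25.5 CPM in pIVCL and 27.9 CPM in Control (0.914, 0.548 to 1.51).

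Hsph1 (chromosome 5, 149614287 to 149636376, minus strand) had 44.9 CPM in pIVCL and 14.3 CPM in Control B cell-like cells (95 and 7 UMIs, ratio 3.14, 1.47 to 8.02). In LSEC-like cells it had 40.4 CPM in pIVCL and 22.4 CPM in Control (1.81, 1.35 to 2.40), and in cluster 5 the ratio was 1.11 (0.344 to 3.12). In hepatocyte-like cells it was lower in pIVCL, at 33.5 CPM, against 47.3 CPM in Control (0.709, 0.620 to 0.812). In clusters 3, 7, 13 and 14 its ratios were 0.709, 0.406, 1.12 and 1.62, so the shared clusters went both ways, from 3 to 21 UMIs per library. Kupffer-like cells had a ratio of 0.978 (0.572 to 1.66).

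The 2 cytosolic Hsp90 genes were abundant everywhere. Hsp90 proteins mature kinases, steroid receptors and other signalling proteins, and of the 2 forms the alpha form is the more stress-responsive. Hsp90ab1 (chromosome 17, 45567775 to 45573271, minus strand), the constitutive beta form, ranged from 335 CPM in neutrophil-like to 1647 CPM in monocyte/macrophage-like cells of pIVCL, and from 782 CPM in hepatocyte-like cells to 2051 CPM in unnamed cluster 16 of Control. Its ratios stayed close to 1, from 0.896 in T cell-like (0.827 to 0.970) and Kupffer-like cells (0.839 to 0.957) to 1.17 in hepatocyte-like cells (1.14 to 1.21), where clusters 3, 7, 13 and 14 gave 0.908, 1.002, 1.497 and 1.27. Hsp90aa1 (chromosome 12, 110690605 to 110702728, minus strand) had 301 CPM in pIVCL and 168 CPM in Control LSEC-like cells, a ratio of 1.79 (1.61 to 1.98), and 1.59 (1.13 to 2.22) in the shared LSEC-like cluster 5. In hepatocyte-like cells it had 315 CPM in pIVCL and 193 CPM in Control (1.63, 1.53 to 1.73), with ratios of 1.56, 1.16, 1.49 and 1.85 in clusters 3, 7, 13 and 14. The cycling hepatocyte-like cluster 18, led by Cdca3 and Cdc20, had 859 CPM in its 91 pIVCL cells, against 250 CPM in the large pIVCL cluster 4. Kupffer-like cells had a ratio of 1.10 (0.967 to 1.25).

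The mitochondrial chaperonin pair is encoded by Hspd1 (Hsp60, the folding barrel; chromosome 1, 55077835 to 55088243, minus strand) and Hspe1 (Hsp10, its lid; 55088132 to 55091307, plus strand), whose annotated models overlap by 112 bases. Hspe1 was higher in pIVCL in all 5 compared classes, and its ratio was above that of its partner in hepatocyte-like, LSEC-like and Kupffer-like cells. In hepatocyte-like cells Hspe1 had 594 CPM in pIVCL and 317 CPM in Control, a ratio of 1.87 (1.79 to 1.96), and in the shared clusters 3, 7, 13 and 14 the ratios were 1.84, 1.31, 2.71 and 2.32. In LSEC-like cells it had 290 CPM in pIVCL and 153 CPM in Control (1.90, 1.71 to 2.11), and 1.96 (1.45 to 2.63) in the shared cluster 5. The ratios were 1.54 in Kupffer-like (1.34 to 1.76), 1.51 in T cell-like (1.30 to 1.74) and 1.29 in B cell-like cells (1.10 to 1.53). In the deeper Kupffer-like cluster 10 alone the ratio was 1.12 (0.906 to 1.38), and in the shallow cluster 1 it was 1.48 (1.20 to 1.83). In the T cell-like cluster 8 it was 1.06 (0.842 to 1.34), and in cluster 12 it was 1.53 (1.20 to 1.95).

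Hspd1 had ratios of 0.853, 0.975, 1.40 and 1.69 in the hepatocyte-like clusters 3, 7, 13 and 14, which went both ways. Its class ratios were 1.06 in hepatocyte-like cells (1.02 to 1.11), 1.26 in Kupffer-like (1.06 to 1.51), 1.40 in LSEC-like (1.22 to 1.61, and 1.31, 0.895 to 1.90, in cluster 5), 1.42 in B cell-like (1.11 to 1.84) and 1.504 in T cell-like cells (1.22 to 1.86). Hepatocytes, which are rich in mitochondria, had the highest Hspd1 level of any class in both libraries, with 431 CPM in pIVCL (422 to 441) and 407 CPM in Control (392.2 to 422). The next class reached 261 CPM in pIVCL and 205 CPM in Control. Of all other classes only the 37 mature DC-like cells of pIVCL, at 244 CPM, had an interval (126 to 426) that reached the hepatocyte-like one. Hspe1 was also highest in pIVCL hepatocyte-like cells, but mature DC-like cells (589 CPM) overlapped them, and in Control pDC-like cells stood first with 406 CPM.

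Hspb1 (chromosome 5, 135887919 to 135889563, plus strand) encodes Hsp27, a small chaperone that works without ATP and also binds the actin cytoskeleton. It was highest in non-haematopoietic classes. Mesothelial-like cells, the lining of the liver capsule, had 987 CPM in pIVCL (790 to 1219, 20 cells) and 346 CPM in Control (256 to 457, 43 cells), and they differed in depth, at medians of 4423.5 and 1346 UMIs. Cholangiocyte-like cells had 311 CPM in pIVCL and 154 CPM in Control, and stellate-like cells 136 and 147 CPM. Unnamed cluster 16 went the other way, with 104 CPM in pIVCL and 302 CPM in Control. Monocyte/macrophage-like cells had 5.63 and 5.80 CPM, and Control T cell-like and B cell-like cells had 0 UMIs.

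Among compared classes Hspb1 was higher in pIVCL in hepatocyte-like cells (53.9 CPM in pIVCL and 21.5 CPM in Control, ratio 2.51, 2.11 to 2.99) and in LSEC-like cells (80.4 and 47.4 CPM, 1.70, 1.39 to 2.07). In the hepatocyte-like clusters 3, 7, 13 and 14 the ratios were 3.24, 2.32, 5.47 and 7.11, and in the LSEC-like cluster 5 the ratio was 0.766 (0.299 to 1.75). In B cell-like cells it had 31 UMIs in pIVCL (14.7 CPM) and 0 in Control, at least 2.39-fold higher with the floor. In the same pIVCL library Kupffer-like cells had 17.0 CPM (20 UMIs), T cell-like cells 10.3 CPM and monocyte/macrophage-like cells 5.63 CPM. The part of free hepatocyte RNA in these low levels was not tested.

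**Figure D4:**
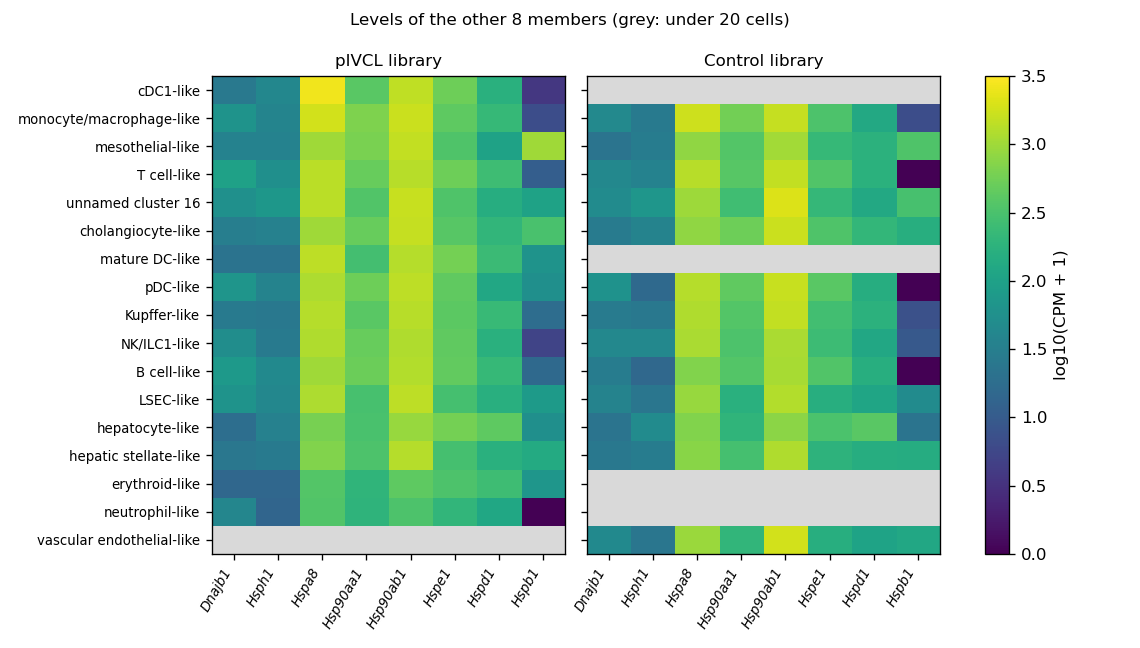
Levels of the other 8 members as log10(CPM + 1) in each class, in the pIVCL library (left panel) and the Control library (right panel), with classes under 20 cells in grey. Hspa8 and Hsp90ab1 are high in most classes, Dnajb1 and Hsph1 are low in all, and Hspb1 stands out in mesothelial-like cells, at 987 CPM in pIVCL and 346 CPM in Control.

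Counted together, members were called higher or lower where (CPM + 20) differed at least 1.5-fold and the gene had 20 or more UMIs in the class. In B cell-like cells 5 of 10 members were higher in pIVCL, where 7.83% of all 8531 genes tested were higher. In LSEC-like cells 4 of 10 were higher (5.81% of 11090 genes), in Kupffer-like cells 2 of 10 (5.82% of 9023), in T cell-like cells 3 of 9 (9.0% of 7519) and in hepatocyte-like cells 3 of 9 (2.43% of 11339). No member was lower by that rule in any of the 5 classes, where 1.44% of all genes tested were in B cell-like, 1.73% in hepatocyte-like, 4.48% in LSEC-like, 4.60% in T cell-like and 5.47% in Kupffer-like cells. The members called were Hspa1a and Hspa1b in Kupffer-like cells, and these with Dnajb1 in T cell-like cells. They were Hspa1a, Hspa1b, Dnajb1, Hsph1 and Hspb1 in B cell-like cells, Hspa1a, Hspa1b, Hsp90aa1 and Hspe1 in LSEC-like cells, and Hsp90aa1, Hspe1 and Hspb1 in hepatocyte-like cells.

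The median log2 ratio of the measured members was 0.65 in B cell-like cells, where the median of all genes was 0.09, and 0.58 in LSEC-like cells (all genes -0.01). It was 0.54 in T cell-like cells (all genes 0.00), 0.22 in Kupffer-like cells (all genes -0.11) and 0.08 in hepatocyte-like cells (all genes 0.00). The 8 members other than Hspa1a and Hspa1b summed to ratios of 1.32 in LSEC-like and B cell-like cells, 1.21 in hepatocyte-like, 1.08 in T cell-like and 1.05 in Kupffer-like cells. In hepatocyte-like cells this sum depended on the cluster, with 1.03 and 1.02 in clusters 3 and 7, and 1.86 (1.58 to 2.19) and 1.57 (1.36 to 1.81) in clusters 13 and 14.

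**Figure D5:**
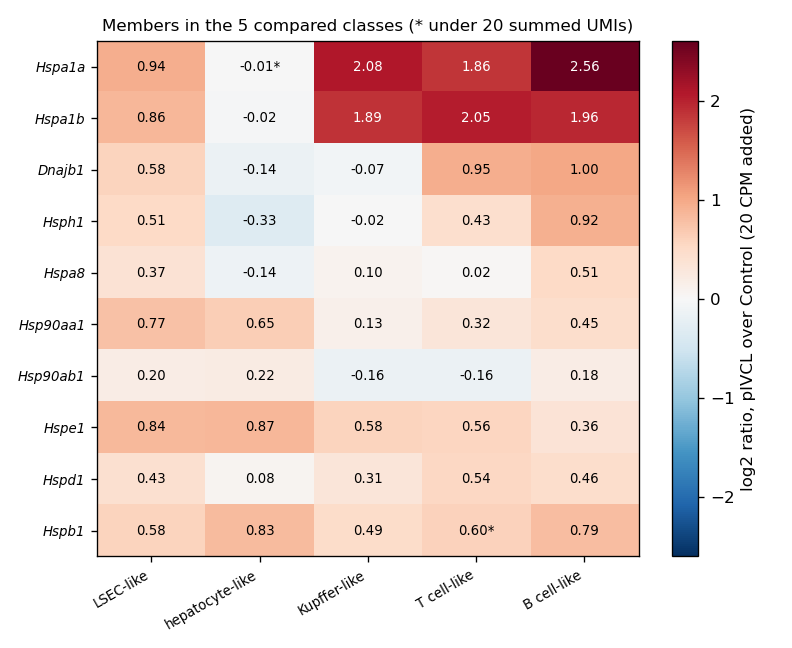
Log2 ratio of pIVCL over Control, with 20 CPM added to both, for the 10 members (rows) in the 5 compared classes (columns); red is higher in pIVCL and blue lower, and an asterisk marks fewer than 20 summed UMIs. Hspa1a reaches 2.56 in B cell-like and 2.08 in Kupffer-like cells and stands at -0.01 in hepatocyte-like cells.

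The wider chaperone network was measured with 5 further lists beside the members. Of all genes tested, 7.83% were higher by 1.5-fold in B cell-like, 5.81% in LSEC-like and 5.82% in Kupffer-like cells. The share was 9.0% in T cell-like and 2.43% in hepatocyte-like cells. The shares lower were 1.44%, 4.48%, 5.47%, 4.60% and 1.73% in the same order of classes. A single gene called in lists this short is not read as a result about the list. Of 14 heat shock factors and other HSF1 targets, 1 of 13 measured was higher by 1.5-fold in B cell-like cells (Dnaja1, an Hsp40, at a log2 ratio of 0.64), and none was in LSEC-like, Kupffer-like or T cell-like cells. Hsbp1, which binds HSF1, was higher in hepatocyte-like cells, at 0.70. Hspa4l, an Hsp110 relative, was lower in Kupffer-like cells, at -0.61. Bag3, a nucleotide exchange factor of Hsp70, stood at 0.56 in B cell-like cells (20 UMIs in pIVCL and 0 in Control) and at 0.28 in LSEC-like cells. Of 13 cytosolic cochaperones none was higher in any of the 5 classes, while Cdc37, the kinase-loading partner of Hsp90, was lower in T cell-like cells (-0.59) and Fkbp5, a glucocorticoid-induced partner, in hepatocyte-like cells (-0.62). The 7 CCT chaperonin genes found, which fold actin and tubulin, had none past 1.5-fold in any class, with medians from -0.23 in T cell-like to 0.22 in LSEC-like cells. Of 14 endoplasmic reticulum chaperones 4 were higher in LSEC-like cells, namely Hspa5 (BiP, 0.87), Pdia6 (0.68), Manf (0.61) and Hsp90b1 (0.59). In B cell-like cells 1 was higher (Canx, calnexin, 0.69), and Hsp90b1 was lower in Kupffer-like cells, at -0.61. Of 8 mitochondrial chaperones and proteases Clpx (0.95) and Hspa9, the mitochondrial Hsp70 (0.62), were higher in Kupffer-like cells, and Clpx was in T cell-like cells (0.77). Clpp was lower in T cell-like cells (-0.59) and Hscb, which builds iron-sulphur clusters, in LSEC-like cells (-0.67).

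Immediate-early and hepatocyte transcripts also differed between the libraries in several classes, and their part in the member results was not tested. The 14 immediate-early genes summed to 12543 CPM in pIVCL and 5713 CPM in Control LSEC-like cells. There 13 of 14 were higher by 1.5-fold, against 5.81% of all genes tested. In B cell-like cells the list summed to 6721 CPM in pIVCL and 5040 CPM in Control (7 of 13 measured higher, against 7.83% of all genes). In T cell-like cells it summed to 5190 CPM in pIVCL and 3399 CPM in Control (8 of 13, against 9.0% of all genes). In Kupffer-like cells the list was lower in pIVCL, at 3920 CPM, against 5005 CPM in Control. Of its genes 13 of 14 were below a ratio of 1 there, where the median log2 ratio of all genes was -0.11. The list stood at 980 CPM in pIVCL and 966 CPM in Control hepatocyte-like cells. The 10 hepatocyte free RNA genes together summed to more in pIVCL in each non-parenchymal class compared. The sums were 29199 CPM in pIVCL and 11975 CPM in Control Kupffer-like cells, and 24521 and 15886 CPM in B cell-like cells. They were 20033 and 8751 CPM in T cell-like cells, and 12897 and 7797 CPM in LSEC-like cells. Singly, 1 of the 10 genes was lower in pIVCL in LSEC-like cells, and 1 in B cell-like cells. Markers of other blood cells differed too. The 5 plasma cell markers, none of them at 0, summed to 1156 CPM in pIVCL and 6002 CPM in Control B cell-like cells. The 8 neutrophil markers summed to 543 CPM in pIVCL (2 at 0) and 79.5 CPM in Control (3 at 0) Kupffer-like cells, and the 9 monocyte/macrophage markers to 387 CPM in pIVCL and 17.3 CPM in Control LSEC-like cells, with 1 at 0 in each.

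Depth and mitochondrial share were held closer by splitting the cells. Below 5% mitochondrial UMIs the inducible Hsp70 ratio was 3.32 (2.21 to 4.90) in LSEC-like and 7.59 (4.92 to 12.1) in Kupffer-like cells, from 5% to 10% it was 2.99 and 7.95, and from 10% to 25% it was 2.76 (1.06 to 7.69) and 12.3 (3.25 to 104). Among cells of 3000 to 10000 UMIs it was 2.34 (1.76 to 3.10) in LSEC-like and 13.5 (8.41 to 22.9) in Kupffer-like cells. In that range the B cell-like sum was 218 CPM in pIVCL and 0 in Control (112 and 93 cells). From 1000 to 3000 UMIs the LSEC-like ratio was 7.13 (2.53 to 27.7), and Kupffer-like cells had 193 CPM in pIVCL and 0 in Control. Among LSEC-like cells under 1000 UMIs pIVCL had 0 UMIs and Control 2. Kupffer-like cells under 1000 UMIs (403 in pIVCL and 83 in Control) had 7 and 1 UMIs, a ratio of 1.47 (0.189 to 66.3). The other 8 members in B cell-like cells had a ratio of 1.61 (1.49 to 1.74) at 3000 to 10000 UMIs. From 1000 to 3000 UMIs, with 823 pIVCL and 37 Control cells, that ratio was 1.21 (1.06 to 1.38). In hepatocyte-like cells the ratio of the other 8 members depended on the mitochondrial bin. It was 1.32 (1.25 to 1.40) below 5%, 2.05 (1.76 to 2.40) from 5% to 10% and 1.15 (1.13 to 1.17) from 10% to 25%. In T cell-like cells it was 1.19 (1.11 to 1.27) below 5% and 0.961 (0.890 to 1.04) from 5% to 10%. At 3000 to 10000 UMIs the T cell-like ratio was 1.32 (1.24 to 1.40).

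Patterns over cell classes were described with Pearson correlations of log2(CPM + 20) over 19 class-by-library profiles of at least 50 cells, among 10557 genes with at least 200 UMIs. These points share libraries and depth, and no test is attached. The inducible Hsp70 sum was most like Srf (0.84), the serum response factor, then Rbm14 (0.78) and Samd1 (0.78). Hspb1 was most like Trip6 (0.96), Maged1 (0.95) and Atp9a (0.94), and Hspd1 most like Gcat (0.92), Cd1d1 (0.92) and Lap3 (0.91). Dnajb1 was most like Per1 (0.87), Coq10b (0.85) and Ccdc9 (0.82), Hspa8 like Tmem251 (0.91), Dr1 (0.90) and Mcm2 (0.89), and Hsp90ab1 like Ptbp1 (0.93), Ube2e1 (0.92) and Fam96b (0.92). Hsp90aa1 was most like Polr2h (0.87), Atic (0.86) and Eef1e1 (0.86), Hspe1 like Cox7b (0.81), Mien1 (0.79) and Mrpl34 (0.78), and Hsph1 like Usp24, Tigar and Mrnip (all 0.73). Among members the most alike were Hspa8 and Hsp90ab1 (0.87), Hspe1 and Hspd1 (0.71) and Hsp90aa1 and Hspe1 (0.71). The lowest correlation, of Hspb1 and Hspe1, was weak (-0.27).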

How the data were processed

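Each library came as one matrix, deposited by the authors, that gives the UMI counts of every gene in every barcode as whole numbers without normalization. Per the submitters' processing notes the reads had gone through Cell Ranger 3.0.2 with the mm10 genome; no annotation release is named there. Gene coordinates are those of GENCODE release M21, which held 99.6% of the 31053 identifiers.

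The cell filter asked for 500 UMIs, 200 genes and no more than 25% mitochondrial UMIs; the last limit took out 1554 pIVCL (22.2%) and 830 Control barcodes (23.3%). Scrublet, run in scanpy 1.11.5 on each library with an expected doublet rate of 6%, found almost none. Both libraries were clustered together without integration, using leidenalg 0.10.2 at resolution 1 on 20 neighbours, 30 principal components and 2000 variable genes, from which the members and other stress and chaperone genes were left out. A list of 165 markers for 23 cell classes gave the names. Other software was Python 3.11.15, numpy 2.4.6, scipy 1.17.1, scikit-learn 1.9.0 and matplotlib 3.10.9.

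UMIs were summed per class and library and scaled to CPM. Intervals are exact at 95% (Poisson, Clopper-Pearson or conditional binomial). Log2 ratios had 20 CPM added, which understates changes of low genes. Where a class had 0 UMIs, bounds use 3 UMIs per class and library. Summing, ratios and thinning were tested on simulated data. Alternatives changed the cell filter, clustering, class rule, denominator, scaling, cell weight, depth, doublet handling, pseudocount, fold and count minimum. Members, lists and measures were chosen with earlier results of these data known. All members are named; genes of other lists are among the 2 to 4 with the largest absolute log2 ratio in a class, and genes of like pattern are the 3 with the highest correlation. The hepatocyte-like count of the list of heat shock factors and HSF1 targets is not reported here.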

Additional observations from a re-analysis of the deposited data

Results flagged for a closer look

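For 4 members the ratio of pIVCL over Control had an interval above 1 in one compared class and below 1 in another; with 1 library per group the difference between classes was not tested. Hspa8 had a ratio of 1.44 in B cell-like and 0.904 in hepatocyte-like cells, and Hsp90ab1 1.17 in hepatocyte-like and 0.896 in T cell-like cells. Dnajb1 had 2.71 in B cell-like and 0.816 in hepatocyte-like cells, and Hsph1 3.14 in B cell-like and 0.709 in hepatocyte-like cells. Over the alternatives run, the hepatocyte-like log2 ratio of Hspa8 ran from -0.17 to 0.26 and that of Dnajb1 from -0.23 to 0.34, so neither kept its sign. The libraries filled different deep hepatocyte-like clusters, and within the 4 shared ones Hspa8 and Hsph1 went both ways.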

How the results depend on the processing

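Over the alternatives run, 68 of 76 values of the counts and of the LSEC-like inducible Hsp70 ratio stayed within 1.5 times the reported count or within the reported interval. A 2-fold rule gave 3 members in B cell-like, 0 in LSEC-like and 0 in hepatocyte-like cells. Clustering at resolution 2 gave 4 in Kupffer-like cells. T cell-like cells gave 5 with trimmed mean scaling, 0 after thinning to 1000 UMIs (7 members measured) and 1 with at least 100 summed UMIs (6 measured). The LSEC-like ratio was 2.53 with equal weight per cell and 2.81 to 3.80 otherwise. Of 636 single log2 ratios 551 stayed within their interval, 84 moved and 1 was counted as reversed. That was Dnajb1 in T cell-like cells, at -0.15 after thinning, and the cause was not tested. Other ratios also changed sign in some alternative without being counted as reversed. Examples are Hspd1 in Kupffer-like (-0.10 to 0.48), Hsp90ab1 in LSEC-like (-0.06 to 0.25) and Hsph1 in T cell-like cells (-0.33 to 0.56). Trimmed mean scaling shifted all genes by 0.11 in B cell-like and -0.18 in Kupffer-like cells. Leaving out clusters with a median under 1000 UMIs, chosen after seeing the data, gave 6 members in LSEC-like cells. Leaving out cells with markers of other lineages removed 794 of 1053 pIVCL and 122 of 138 Control B cell-like cells. Monocyte/macrophage-like and NK/ILC1-like cells, under 100 in Control, were left out of the counts of members. No paired analysis was possible because each group has 1 library. Depth limits Hspa1a, Hspa1b, Dnajb1, Hsph1 and Hspb1 most.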

Other observations

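The 1554 pIVCL and 830 Control barcodes above the mitochondrial limit had 5.71 CPM (4.36 to 7.35) and 3.58 CPM (2.08 to 5.73) of Hspa1a and Hspa1b together, against 51.3 and 19.3 CPM in kept cells. The other 8 members stood there at 1804 CPM in pIVCL and 1224 CPM in Control, against 3255 and 2856 CPM in kept cells.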
